A study of Mus musculus with 12 samples.

Results

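The axon guidance ligands and receptors of pillar cells and Deiters' cells were taken from the expression table by their gene symbols. These are the ephrins and their Eph receptors, the semaphorins of classes 3 to 7 with the plexins and neuropilins, the Slits with the Robo receptors, and the netrins with Dcc and the Unc5 receptors. The symbols matched 73 of the 48440 features. Of these, 68 are genes of the families and are described below as the guidance genes. The other 5 share only the beginning of a symbol (Unc50, Unc5cl and 3 transcripts antisense to Plxna4) and were set apart by name, not by their values. Pillar cells line the tunnel of Corti and Deiters' cells hold the outer hair cells from below. Both were isolated from adult CBA/J mice, labelled as 28 to 32 days old, which were untreated and carried no transgene as far as the labels say. Cells were recognised by their shape and drawn up singly with a suction pipette, about 1000 for each library, and each library pools the cells of several mice. There were 3 libraries of pillar cells and 3 of Deiters' cells, each sequenced in 2 lanes. The study set them beside inner and outer hair cells, mainly to ask if these supporting cells carry transcripts of hair cell machinery. It also compared pillar with Deiters' cells, to see which are more like hair cells.

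Guidance molecules were first described as cues that attract or repel growing axons, and they also act between cells that are not neurons, where they set boundaries, adhesion and cell shape. Ephrins are bound to the membrane and signal through Eph receptor tyrosine kinases on neighbouring cells, with signals passing into both cells. Semaphorins of class 3 are secreted and act through complexes of a neuropilin and a plexin, while most others are membrane proteins that bind plexins directly. Slits are secreted ligands of Robo receptors, and netrins act through Dcc, neogenin and the Unc5 receptors. In the cochlea, members of these families are known for guiding the fibres of spiral ganglion neurons to the hair cells during development, and the supporting cells are among the cells these fibres pass.

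The libraries held 18641354 to 21557584 reads, worked out from the steps between the deposited values. These are the mapped reads by which RPKM were scaled, and they are fewer than the sequenced reads given in the study's methods, a gap that was not examined. Lanes were averaged, so that n = 3 libraries per cell type. Values are RPKM, in which read numbers are divided by transcript length and by the reads mapped in that lane, and a mean above 0.1 RPKM was taken as expressed. Lanes fell into sets of 6 and 6 (lane sets 1 and 2) that cut across both cell types. Of the 13263 genes above 1 RPKM in a lane, 526 were more than 2-fold apart between the sets. The matched features held 0 of these, but those that stayed lower could not be counted. Only 32 of the 73 averaged over 1 RPKM in pillar or Deiters' cells, so that many were not covered. Of the markers, all 11 of 11 hair cell genes were called higher in pillar cells, with summed levels of 719 to 761 RPKM in pillar cells and 111 to 117 RPKM in Deiters' cells, and no gene of that list was at 0 in either cell type. Of 7 tested neuronal markers, 1 was higher in pillar cells, and 3 higher in Deiters' cells (summed levels of 25.4 to 27.1 and 47.4 to 50.3 RPKM, with Prph at 0 throughout). Of 8 markers of fibroblasts, 4 were higher in pillar cells, and 1 higher in Deiters' cells (2197 to 2220 and 1391 to 1426 RPKM, none at 0), and of 8 Schwann cell and glial markers, 3 and 1 (20.8 to 21.6 and 16.0 to 16.4 RPKM, none at 0). Of 6 tested endothelial markers, 2 were higher in pillar cells, and 1 higher in Deiters' cells (3.06 to 3.41 and 1.37 to 1.61 RPKM). Of the blood cell lists, neutrophil markers were called 5 times towards pillar cells and 2 times towards Deiters' cells (498 to 518 and 249 to 273 RPKM, none at 0), markers of B and T cells 4 and 0 times (22.5 to 24.8 and 5.06 to 5.67 RPKM, with Cd3e and Cd3g at 0), those of eosinophils 0 and 4 times (0.0687 to 0.565 and 86.9 to 89.8 RPKM) and those of platelets 0 and 3 times (8.46 to 11.7 and 30.2 to 34.0 RPKM). Of 6 red cell markers, 1 was called towards pillar cells and 0 towards Deiters' cells (4802 to 4880 and 2973 to 3457 RPKM), and of 6 macrophage markers likewise 1 and 0 (15.0 to 17.3 and 14.5 to 17.7 RPKM). Over all genes, 14.7% were called towards pillar cells and 14.0% towards Deiters' cells, so that 1 or 2 calls in lists this short say little. The part of the cells named by these marker lists in the differences below was not tested. For the labels themselves, 2 of 8 general supporting cell markers were called towards pillar cells and 0 towards Deiters' cells (1608.5 to 1636 and 2592 to 2672 RPKM). The pillar cell markers S100b and S100a6 were called higher in pillar cells, while Ngfr was at 0.0150 and 0.0810 RPKM in pillar and Deiters' cells. The study reports NGFR protein in adult pillar cells by antibody staining. Hes5, a Deiters' cell marker, was at 0.0126 and 0 RPKM in pillar and Deiters' cells. Lfng, which is also used as a Deiters' cell marker, was called higher in pillar cells, at 8.95 against 1.67 RPKM. Fgfr3 and Prox1, on the same list, were also higher in all pillar cell libraries but not called. Both also stand on the general supporting cell list. Fgfr3 is on the pillar cell list as well, so that it cannot tell the labels apart. With means of 22.0 RPKM (pillar) and 13.5 RPKM (Deiters'), Fgfr3 made up most of the summed levels of the Deiters' cell markers. Of the 3 tested Deiters' cell markers, 1 was thus called towards pillar cells and 0 towards Deiters' cells (29.7 to 32.3 and 15.1 to 15.5 RPKM). Of the 3 tested pillar cell markers, 2 and 0 were called (508 to 539 and 186 to 205 RPKM).

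Pillar and Deiters' cells expressed most of the guidance genes, mainly at low levels. Of the 68 genes, 49 were expressed in pillar cells, and 48 expressed in Deiters' cells, 44 of them in both. The median level of those expressed was 1.51 and 1.13 RPKM in pillar and Deiters' cells, where that of all expressed genes was 3.83 and 3.40 RPKM. A mean above 1 RPKM in at least 1 cell type was reached by 31 genes and a mean above 10 RPKM by 5, namely Ntn4, Efna1, Plxnb2, Epha7 and Efnb2. Another 8 genes were listed at 0 in all libraries (Epha2, Epha6, Epha8, Epha10, Sema3g, Slit1, Robo3 and Dcc), and 7 stayed between 0 and 0.1 RPKM in both cell types (Efnb3, Sema5a, Robo2, Robo4, Ntn5, Unc5a and Unc5c). The genes above the cutoff in 1 cell type alone were Sema4f, Sema4g, Plxnb3, Plxnc1 and Unc5d in pillar cells and Epha3, Ephb2, Sema3e and Sema7a in Deiters' cells. All 9 were below 1 RPKM in both cell types.

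**Figure D1:**
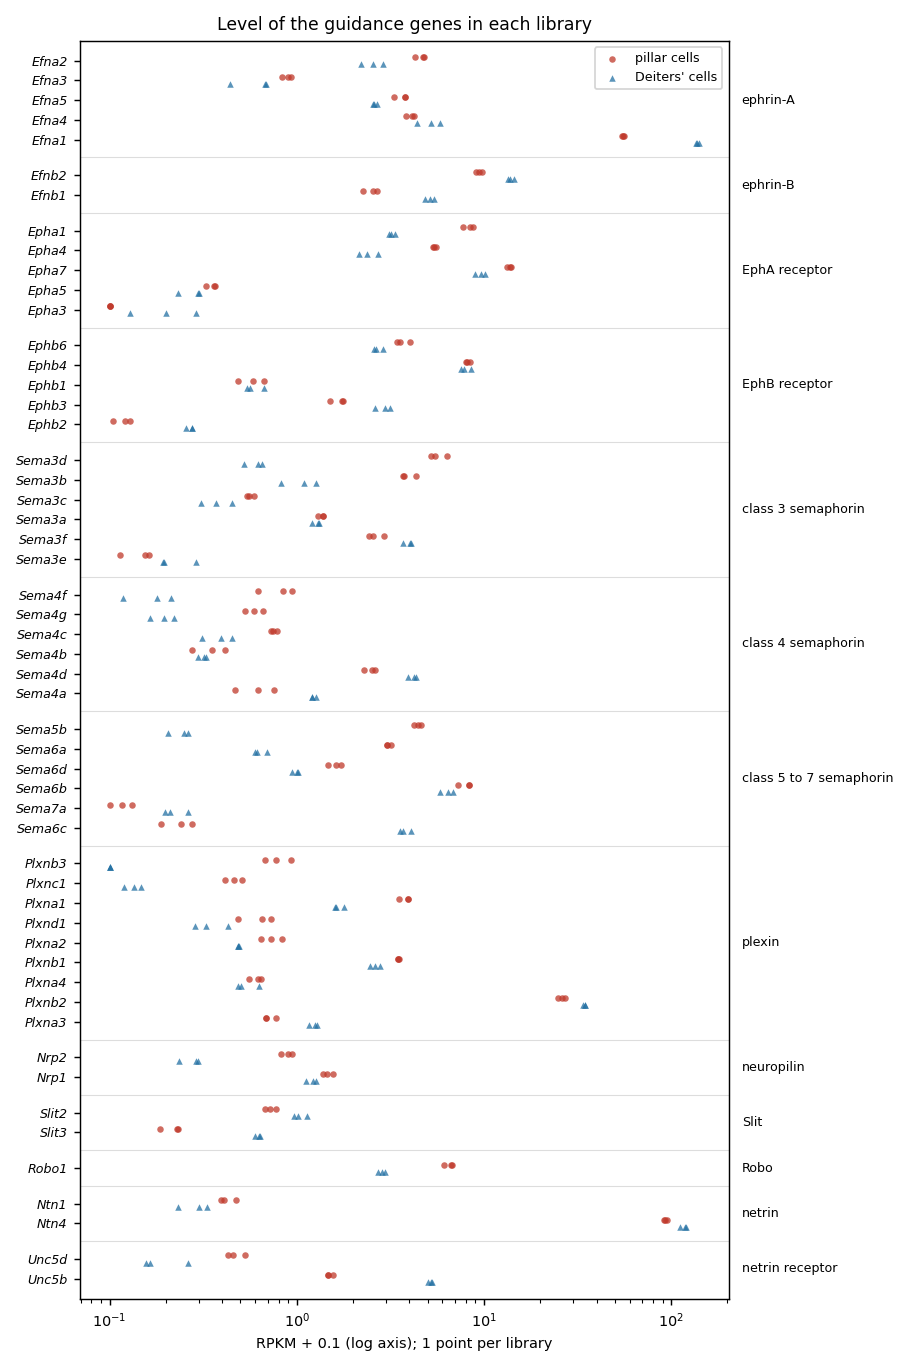
Level of the 53 tested guidance genes in each library, as RPKM + 0.1 on a log axis, with genes grouped by family and ordered within it by their difference. Circles are the 3 pillar cell libraries and triangles the 3 Deiters' cell libraries. Points of 1 cell type lie close together for genes above 1 RPKM, and Ntn4 and Efna1 stand to the right of all others.

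The 53 guidance genes above 0.1 RPKM on average in pillar or Deiters' cells were compared with limma on log2(RPKM + 0.1), in 1 fit with all 17188 genes that passed the same filter. Log2 fold changes are pillar cells over Deiters' cells, so that negative values mean a higher level in Deiters' cells. A call needed an adjusted p no larger than 0.01 together with a 2-fold or larger difference on that scale. Of the 53, 14 (26.4%) were called higher in pillar cells, where the share over all genes was 14.7%, and 7 (13.2%) in Deiters' cells, where it was 14.0%. The other 32 were not called: 17 of them passed the adjusted p with a difference under 2-fold, and 15 did not pass it. By the adjusted p alone, 22 of the 53 were higher in pillar cells, where the share over all genes was 30.1%, and 16 in Deiters' cells, where it was 31.9%. The median log2 fold change of the 53 was 0.35, against 0.00 over all genes, and the median of its absolute value was 0.80 against 0.61. The calls included receptors and ligands. Among the 34 genes of the receptor families, 24 were tested, with 8 higher in pillar cells, and 2 higher in Deiters' cells. Among the 34 of the ligand families, 29 were tested, with 6 and 5. Because each library pools many cells, fewer cells with the RNA of a gene and less of it per cell cannot be told apart. With 1 RPKM added in place of 0.1, the fold changes of low genes shrink and 8 of the 21 calls remained, those of Efna1, Epha1, Sema3b, Sema3d, Sema5b, Sema6a, Sema6c and Unc5b, which were kept under all other alternatives as well.

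**Figure D2:**
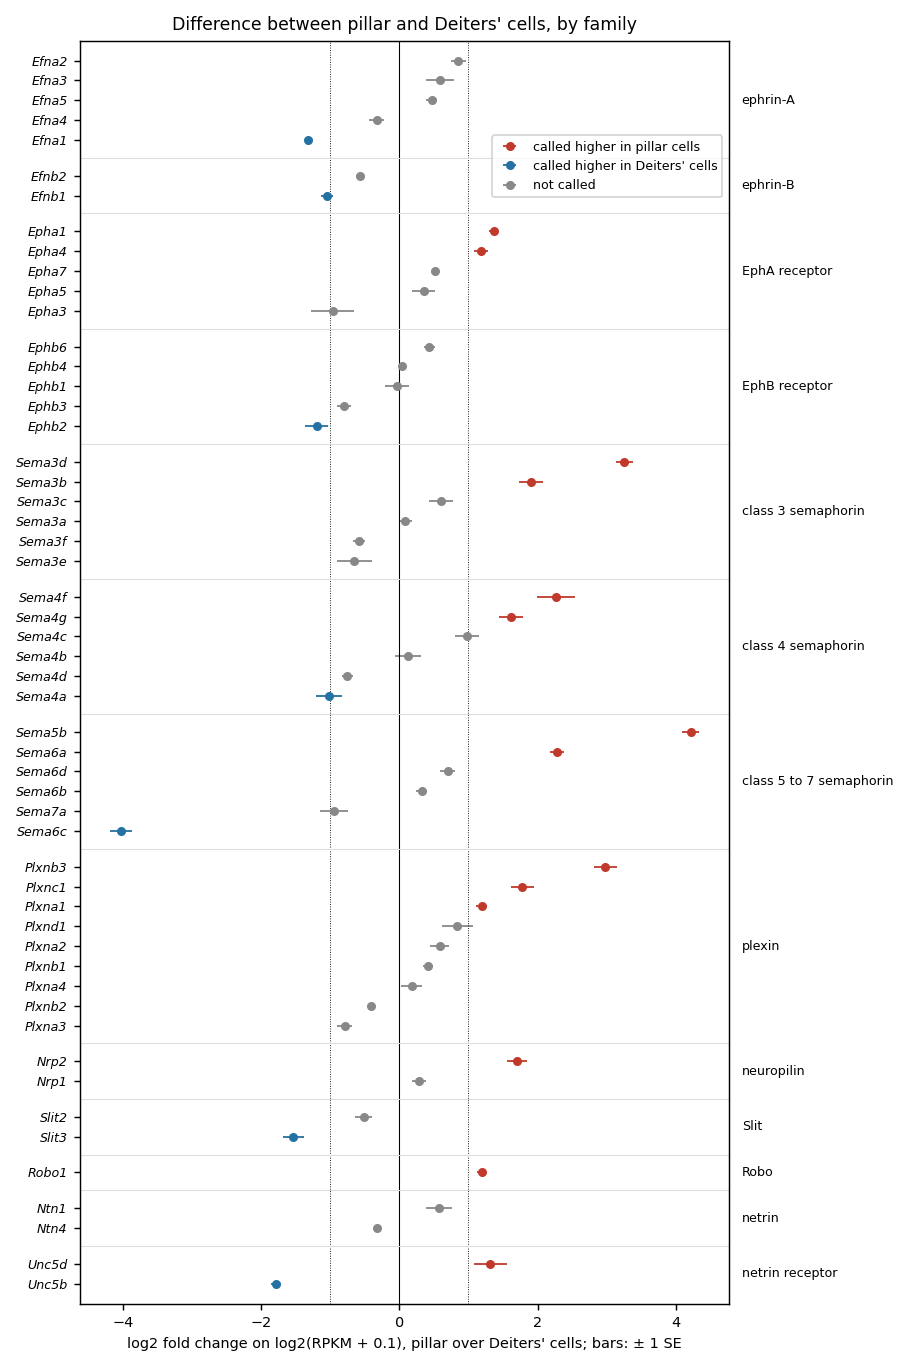
Difference between pillar and Deiters' cells for the same 53 genes, as the log2 fold change on log2(RPKM + 0.1) with bars of 1 SE (n = 3 libraries per cell type). Genes called higher in pillar cells are red, those called higher in Deiters' cells blue, and dotted lines mark a 2-fold difference. Sema5b at 4.21 and Sema6c at -4.03 lie at the ends, and both belong to the membrane-bound semaphorins.

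The stretch before the transcription start is shown for 4 genes with some of the largest differences, since promoters lie there: Sema6c and Unc5b, higher in Deiters' cells, and Sema3d and Sema4f, higher in pillar cells. In all 4 the stretch lies wholly before the gene model of GENCODE M21. Sequences are the 250 bases upstream of the start in RefSeq, in build GRCm38.p6, which held 58 of the guidance genes. For Sema6c, with 2 starts in RefSeq, the one nearer to the start of the gene model was taken. They are written 5′ to 3′ on the strand of the gene, with capitals for the GC box GGGCGG on either strand.
Sema6c, chr3:95160170-95160419, plus strand: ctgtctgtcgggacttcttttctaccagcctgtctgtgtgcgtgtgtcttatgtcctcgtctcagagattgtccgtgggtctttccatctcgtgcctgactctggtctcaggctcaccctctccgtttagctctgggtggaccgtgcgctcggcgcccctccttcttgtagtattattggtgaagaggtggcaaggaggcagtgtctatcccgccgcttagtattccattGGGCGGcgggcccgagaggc
Unc5b, chr10:60831582-60831831, minus strand: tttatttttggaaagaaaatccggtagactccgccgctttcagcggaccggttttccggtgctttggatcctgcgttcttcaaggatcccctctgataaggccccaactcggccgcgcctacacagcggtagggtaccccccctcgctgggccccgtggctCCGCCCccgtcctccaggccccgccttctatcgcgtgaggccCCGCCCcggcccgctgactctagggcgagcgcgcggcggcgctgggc
Sema3d, chr5:12382916-12383165, plus strand: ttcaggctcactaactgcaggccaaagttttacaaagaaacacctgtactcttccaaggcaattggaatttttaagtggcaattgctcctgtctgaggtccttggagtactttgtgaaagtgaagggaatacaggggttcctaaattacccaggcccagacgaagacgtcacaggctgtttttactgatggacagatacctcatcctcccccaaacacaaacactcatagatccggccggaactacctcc
Sema4f, chr6:82939770-82940019, minus strand: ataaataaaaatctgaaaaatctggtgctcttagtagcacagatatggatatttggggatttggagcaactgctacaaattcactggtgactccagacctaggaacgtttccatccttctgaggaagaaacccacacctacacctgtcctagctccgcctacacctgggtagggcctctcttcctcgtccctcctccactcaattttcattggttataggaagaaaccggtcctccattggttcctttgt
The Sema6c and Unc5b stretches held 1 and 2 GC boxes and 15 and 27 CG pairs, and the Sema3d and Sema4f stretches 0 GC boxes and 4 CG pairs each. A GC box was found in 32.7% of the 32851 stretches of this length in the table, and their median was 6 CG pairs. The CCAAT box (CCAAT, both strands) was found 2 times in Sema6c, 2 times in Sema4f and 1 time in Sema3d, and in 33.8% of all stretches. The E-box (CANNTG, which reads the same on both strands) was found 3 times in Sema3d and 3 times in Sema4f and in 66.2% of all stretches. The TATA box (TATAAA, both strands) was in none of the 4 and in 12.4% of all. These matches describe the letters only, since binding was not measured.

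Of the ephrins, Efna1 and Efnb1 were called higher in Deiters' cells, while 3 ephrin-A genes had higher values in all pillar cell libraries without a call. Of the 8 ephrin genes, 7 were tested, with 0 called higher in pillar cells, and 2 higher in Deiters' cells (14.7% and 14.0% over all genes, so that such counts in a small family say little). Efna1, a GPI-anchored ephrin, ranked 416th of 16005 expressed genes in Deiters' cells and 1151st of 15602 in pillar cells. Its levels were 56.0, 55.5 and 54.3 RPKM in the pillar cell libraries and 141, 136 and 137 RPKM in the Deiters' cell libraries. No library of 1 cell type came near the other: the means were 55.3 ± 0.916 and 138 ± 2.76 RPKM (SD, n = 3), a 2.50-fold higher level in Deiters' cells (log2 fold change -1.32, SE 0.03, adjusted p = 1.92e-07). Efna1 alone made up 81.2% of the summed ephrin-A RPKM of pillar cells and 92.9% of that of Deiters' cells. The other 4 ephrin-A genes were between 0.501 and 5.05 RPKM and none was called. Efna2 was at 4.50 ± 0.266 RPKM in pillar cells and at 2.46 ± 0.346 RPKM in Deiters' cells (SD, n = 3), below a 2-fold difference on the tested scale (log2 fold change 0.85, adjusted p = 4.84e-04). Efna5 also passed the adjusted p (log2 fold change 0.47, adjusted p = 0.00165), and Efna3 did not (0.59, adjusted p = 0.0336). The median log2 fold change of the 5 ephrin-A genes was 0.47, towards pillar cells. Efnb1, a transmembrane ephrin, was at 2.58, 2.16 and 2.46 RPKM in pillar cells and 5.32, 5.07 and 4.77 RPKM in Deiters' cells, a 2.11-fold difference of the means (log2 fold change -1.05, SE 0.09, adjusted p = 5.60e-05). Without pillar cell library 2 its log2 fold change was -0.97, just under 2-fold, so that the call was lost. It was also lost in the second lanes alone (-0.90) and in lane set 1 alone (-0.99). Efnb2, a transmembrane ephrin known from arteries, had the highest level of the ephrin-B genes. It was at 8.93, 9.61 and 9.29 RPKM in pillar cells and 14.4, 13.4 and 13.7 RPKM in Deiters' cells, higher in Deiters' cells in all libraries but under 2-fold (log2 fold change -0.57, SE 0.05, adjusted p = 5.46e-05).

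Of the Eph receptors, Epha1 and Epha4 were called higher in pillar cells and Ephb2 higher in Deiters' cells. Of 5 EphA receptors tested, 2 were called higher in pillar cells, and 0 higher in Deiters' cells. Of 5 EphB receptors, 0 were called higher in pillar cells, and 1 higher in Deiters' cells. Over all genes the shares called were 14.7% and 14.0%. Epha1 was at 7.63, 8.31 and 8.63 RPKM in pillar cells and 3.24, 3.03 and 3.10 RPKM in Deiters' cells. The groups were well apart, with means of 8.19 ± 0.511 and 3.12 ± 0.106 RPKM (SD, n = 3), a 2.62-fold difference (log2 fold change 1.36, SE 0.06, adjusted p = 4.77e-06). Its exons share 236 bases with those of Zyx, and without strand the reads of the shared part cannot be assigned. Epha4, a receptor for ephrins of both classes, was at 5.31, 5.21 and 5.46 RPKM in pillar cells and 2.04, 2.61 and 2.26 RPKM in Deiters' cells (log2 fold change 1.18, SE 0.09, adjusted p = 5.02e-05). Epha7 had the highest level of all Eph receptors in both cell types, at 13.2, 13.6 and 13.8 RPKM in pillar cells and 9.61, 8.84 and 10.02 RPKM in Deiters' cells. It was higher in every pillar cell library, by 1.43-fold (log2 fold change 0.51, SE 0.05, adjusted p = 1.94e-04), and so was not called. Epha3 was listed at 0 in all pillar cell libraries and at 0.188, 0.101 and 0.0285 RPKM in Deiters' cells. These values differ among themselves, and Epha3 was not called (log2 fold change -0.97, SE 0.31, adjusted p = 0.0269), but it was without Deiters' cell library 3 (-1.27, adjusted p = 0.00297).

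Among the EphB receptors, Ephb4, known from veins and the partner of Efnb2, was the most abundant in both cell types and was not called. Its values overlapped, at 8.03, 8.33 and 7.90 RPKM in pillar cells and 7.77, 7.46 and 8.44 RPKM in Deiters' cells (log2 fold change 0.04, SE 0.06, adjusted p = 0.580). Ephb2, a receptor known from boundary formation and synapses, had a low level and a call towards Deiters' cells. It was at 0.00394, 0.0207 and 0.0290 RPKM in pillar cells and 0.155, 0.177 and 0.174 RPKM in Deiters' cells, which is 13 and 126 reads over the libraries of each cell type (log2 fold change -1.19, SE 0.17, adjusted p = 6.68e-04). With quantile normalization the difference was -0.90 and not called. The other 3 EphB genes lay between 0.479 and 3.57 RPKM and were not called.

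Semaphorins gave the largest differences in both directions. Of the 20 genes, 18 were tested, with 6 called higher in pillar cells, 2 in Deiters' cells and 10 not called (14.7% and 14.0% over all genes), and their median log2 fold change was 0.46. Among the secreted class 3 genes, Sema3d and Sema3b were called higher in pillar cells. Sema3d, known from the guidance of axons and endothelial cells, was at 5.39, 6.25 and 5.12 RPKM in pillar cells and 0.551, 0.423 and 0.518 RPKM in Deiters' cells. Every pillar cell library was above every Deiters' cell library, and the means of 5.59 ± 0.588 and 0.497 ± 0.0666 RPKM (SD, n = 3) differed 11.2-fold (log2 fold change 3.25, SE 0.12, adjusted p = 2.01e-06). Sema3b was at 3.62, 3.63 and 4.23 RPKM in pillar cells and 1.17, 0.989 and 0.719 RPKM in Deiters' cells, a 3.98-fold difference of the means (log2 fold change 1.91, SE 0.17, adjusted p = 8.67e-05). Sema3f, a ligand that binds neuropilin-2 by preference, had the highest class 3 level in Deiters' cells and went the other way below the 2-fold limit. It was at 2.34, 2.82 and 2.46 RPKM in pillar cells and 3.94, 3.62 and 3.96 RPKM in Deiters' cells (log2 fold change -0.58, SE 0.09, adjusted p = 9.96e-04). The other 3 tested class 3 genes lay between 0.0433 and 1.26 RPKM and were not called.

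Class 4 semaphorins, which are membrane proteins with roles in the nervous and immune systems, were low in both cell types. Sema4d, a ligand of plexin-B1, was the highest, at 2.42, 2.52 and 2.19 RPKM in pillar cells and 4.25, 3.84 and 4.11 RPKM in Deiters' cells. All Deiters' cell libraries were higher, by 1.71-fold, which did not reach the call (log2 fold change -0.75, SE 0.08, adjusted p = 1.65e-04). Sema4f was at 0.749, 0.524 and 0.839 RPKM in pillar cells and 0.0177, 0.0784 and 0.112 RPKM in Deiters' cells, from 218 and 21 reads (log2 fold change 2.27, SE 0.27, adjusted p = 3.42e-04). Sema4g was at 0.488, 0.558 and 0.428 RPKM in pillar cells and 0.0954, 0.0639 and 0.121 RPKM in Deiters' cells (log2 fold change 1.62, SE 0.18, adjusted p = 2.14e-04). Both were called higher in pillar cells and both were far below the median of expressed genes. Sema4a was the class 4 gene called higher in Deiters' cells, at 0.660, 0.522 and 0.367 RPKM in pillar cells and 1.11, 1.16 and 1.10 RPKM in Deiters' cells (log2 fold change -1.02, SE 0.19, adjusted p = 0.00263). This call was lost when pillar cell library 3 was left out (-0.83, adjusted p = 0.00352), and also without Deiters' cell library 1 (-1.03, adjusted p = 0.0120) or 2 (-0.99, adjusted p = 0.0129). It was lost as well with median ratio scaling (-0.98), in the first lanes alone (adjusted p = 0.0180), in lane set 1 (-0.85) and in lane set 2 (adjusted p = 0.0121), and so in 8 of 19 alternatives when that with 1 RPKM added is counted.

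The membrane-bound semaphorins of classes 5 to 7 held the strongest contrast. Sema5b, which carries thrombospondin repeats and repels axons in the retina of mice, was at 4.12, 4.50 and 4.32 RPKM in pillar cells and 0.150, 0.161 and 0.106 RPKM in Deiters' cells, from 1784 and 59 reads. The means of 4.31 ± 0.188 and 0.139 ± 0.0292 RPKM (SD, n = 3) differed 31.0-fold (log2 fold change 4.21, SE 0.13, adjusted p = 7.99e-07). Sema6c, a transmembrane semaphorin, showed the opposite, at 0.175, 0.0881 and 0.141 RPKM in pillar cells and 3.98, 3.61 and 3.47 RPKM in Deiters' cells, from 47 and 1307 reads. The means of 0.135 ± 0.0440 and 3.69 ± 0.264 RPKM (SD, n = 3) were 27.4-fold apart (log2 fold change -4.03, SE 0.16, adjusted p = 2.83e-06). Sema6a, a ligand of plexin-A2 and plexin-A4, was at 2.95, 3.08 and 2.94 RPKM in pillar cells and 0.597, 0.497 and 0.513 RPKM in Deiters' cells, 5.58-fold higher in pillar cells (log2 fold change 2.28, SE 0.10, adjusted p = 3.41e-06). These relatives from the same class were thus high in different cell types, Sema6a in pillar cells and Sema6c in Deiters' cells. Sema6b was the most abundant of this group in both, at 7.21, 8.22 and 8.21 RPKM in pillar cells and 6.74, 5.73 and 6.37 RPKM in Deiters' cells, and was not called (log2 fold change 0.32, SE 0.08, adjusted p = 0.0104). Sema6d and Sema7a were not called either, and Sema5a was below 0.1 RPKM in both cell types.

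Plexins, the receptors of the semaphorins, were led by Plxnb2 in both cell types, and Plxna1, Plxnb3 and Plxnc1 were called higher in pillar cells. All 9 were tested, with 3 called higher in pillar cells, and 0 higher in Deiters' cells (14.7% and 14.0% over all genes). Plxnb2 made up 71.2% of the summed RPKM of the plexins in pillar cells and 84.4% in Deiters' cells. It was at 26.0, 26.9 and 24.7 RPKM in pillar cells and 34.6, 33.8 and 34.4 RPKM in Deiters' cells, 1.33-fold higher in Deiters' cells (log2 fold change -0.41, SE 0.04, adjusted p = 9.92e-05). Plxna1, a co-receptor of the neuropilins, was at 3.85, 3.85 and 3.42 RPKM in pillar cells and 1.68, 1.50 and 1.53 RPKM in Deiters' cells (log2 fold change 1.19, SE 0.08, adjusted p = 2.84e-05). Its exons share 970 bases with the antisense transcript Gm26811. Plxnb3, best known as a receptor of Sema5a, was at 0.580, 0.676 and 0.836 RPKM in pillar cells and listed at 0 in all 3 Deiters' cell libraries (log2 fold change 2.98, SE 0.17, adjusted p = 1.11e-05). Plxnc1, the receptor of Sema7a, was at 0.360, 0.407 and 0.314 RPKM in pillar cells and 0.0476, 0.0199 and 0.0343 RPKM in Deiters' cells (log2 fold change 1.78, SE 0.17, adjusted p = 1.03e-04). For each of these genes the libraries of the cell types did not overlap. The other 5 plexins lay between 0.248 and 3.40 RPKM and were not called.

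Of the neuropilins, the co-receptors of class 3 semaphorins, Nrp2 was called higher in pillar cells and Nrp1 was not called. Nrp2 was at 0.799, 0.720 and 0.846 RPKM in pillar cells and 0.188, 0.197 and 0.136 RPKM in Deiters' cells, a 4.53-fold difference of the means (log2 fold change 1.70, SE 0.15, adjusted p = 7.73e-05). Nrp1 was at 1.35, 1.28 and 1.46 RPKM in pillar cells and 1.12, 1.02 and 1.17 RPKM in Deiters' cells (log2 fold change 0.28, SE 0.10, adjusted p = 0.0396).

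The expressed Slit and Robo genes differed in opposite directions, with Robo1 higher in pillar cells and a ligand in Deiters' cells. Robo2 and Robo4, too low to be tested, were at 0.00206 and 0 RPKM in pillar cells and 0.0694 and 0.0201 RPKM in Deiters' cells. Robo1 was the only Robo gene above 0.1 RPKM. It was at 6.55, 6.02 and 6.61 RPKM in pillar cells and 2.63, 2.74 and 2.86 RPKM in Deiters' cells, so that the means of 6.39 ± 0.325 and 2.74 ± 0.117 RPKM (SD, n = 3) differed 2.33-fold (log2 fold change 1.19, SE 0.06, adjusted p = 8.30e-06). Both expressed Slits were below 1 RPKM on average and were lower in all pillar cell libraries. Slit3 was at 0.131, 0.0863 and 0.129 RPKM in pillar cells and 0.528, 0.539 and 0.495 RPKM in Deiters' cells, 4.52-fold higher in Deiters' cells (log2 fold change -1.53, SE 0.15, adjusted p = 1.26e-04). Slit2 was at 0.617, 0.578 and 0.677 RPKM in pillar cells and 1.03, 0.914 and 0.868 RPKM in Deiters' cells, under the 2-fold limit (log2 fold change -0.52, SE 0.12, adjusted p = 0.00680).

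Netrin-4, a netrin of basement membranes that binds laminin, was the most abundant guidance ligand of pillar cells and the second of Deiters' cells. Ntn4 was at 91.1, 94.5 and 92.5 RPKM in pillar cells and 120, 111 and 119 RPKM in Deiters' cells, which ranked it 637th of 15602 and 523rd of 16005 expressed genes. It was higher in all Deiters' cell libraries, by 1.26-fold, and not called (log2 fold change -0.33, SE 0.04, adjusted p = 1.98e-04). Ntn1, the netrin of commissural axons, was at 0.325 ± 0.0435 RPKM in pillar cells against 0.188 ± 0.0503 RPKM in Deiters' cells (SD, n = 3) and was not called. Of the netrin receptors, Dcc was listed at 0, and the Unc5 receptors, which mediate repulsion, were called in opposite directions. Unc5b was at 1.36, 1.38 and 1.47 RPKM in pillar cells and 5.17, 5.13 and 4.95 RPKM in Deiters' cells. The groups did not overlap, and the means of 1.40 ± 0.0594 and 5.08 ± 0.117 RPKM (SD, n = 3) were 3.62-fold apart (log2 fold change -1.79, SE 0.06, adjusted p = 1.70e-06). Unc5d was at 0.355, 0.329 and 0.430 RPKM in pillar cells and 0.162, 0.0563 and 0.0640 RPKM in Deiters' cells (log2 fold change 1.32, SE 0.24, adjusted p = 0.00243). The Unc5d call was lost without pillar cell library 1 (1.34, adjusted p = 0.0105) or 3 (1.23, adjusted p = 0.0117), in the first lanes alone (adjusted p = 0.0136) and in lane set 1 alone (adjusted p = 0.0243).

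Levels were also summed over each family. The ephrin-A genes together were at 68.0 ± 1.16 RPKM in pillar cells against 149 ± 3.31 RPKM in Deiters' cells (SD, n = 3), and the EphA receptors at 27.3 ± 0.911 and 15.2 ± 0.420 RPKM. Class 3 semaphorins came to 13.7 ± 0.682 and 6.88 ± 0.292 RPKM, and the neuropilins to 2.15 ± 0.149 and 1.28 ± 0.0539 RPKM. Slits came to 0.739 ± 0.0713 and 1.46 ± 0.0966 RPKM, Robo genes to 6.40 ± 0.326 and 2.83 ± 0.143 RPKM, and netrin receptors to 1.80 ± 0.119 and 5.30 ± 0.178 RPKM. The libraries of the cell types did not overlap in these 7 families, nor in the ephrin-B genes, the class 4 and class 5 to 7 semaphorins, the plexins and the netrins. The sums of the EphB receptors, at 13.7 ± 0.495 and 14.0 ± 0.487 RPKM, did overlap. Differences of single genes were common over all genes, with 30.1% passing the adjusted p alone towards pillar cells and 31.9% towards Deiters' cells. Sums that do not overlap therefore say little about these families. Such sums were not tested, and the share of all genes whose libraries did not overlap is not given here. Several rest mainly on 1 gene: Ntn4 made up 99.7% and 99.8% of the netrins in pillar and Deiters' cells. Robo1 made up 100.0% and 96.8% of the Robo genes, and Unc5b 77.9% and 95.8% of the netrin receptors. Plexins came to 36.3 ± 1.21 and 40.6 ± 0.779 RPKM and class 4 semaphorins to 4.99 ± 0.204 and 5.85 ± 0.181 RPKM, both higher in Deiters' cells. Class 5 to 7 semaphorins came to 16.9 ± 0.680 and 11.7 ± 0.770 RPKM. Some called members went against their sum, with Plxna1, Plxnb3, Plxnc1, Sema4f, Sema4g and Unc5d higher in pillar cells and Sema6c higher in Deiters' cells. Members without a call that did so included Efna2 and Ntn1, higher in pillar cells, and Sema3f, higher in Deiters' cells.

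**Figure D3:**
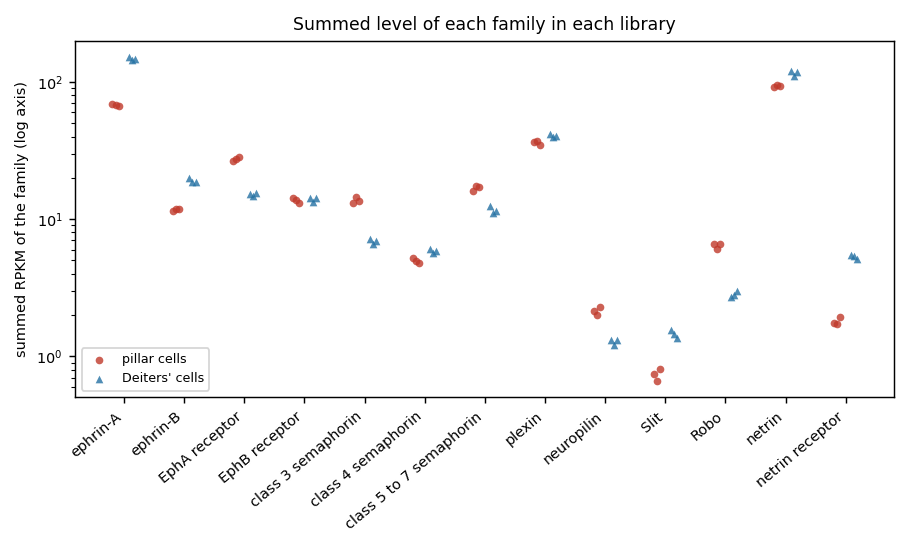
Summed RPKM of each family in each library, on a log axis, with circles for the 3 pillar cell libraries and triangles for the 3 Deiters' cell libraries. Ephrin-A genes, netrins and netrin receptors lie higher in Deiters' cells, and EphA receptors, class 3 semaphorins, neuropilins and Robo genes higher in pillar cells, while the EphB receptors overlap.

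Of the 5 features that matched only by the beginning of their symbol, 3 were tested. Unc50, a gene of membrane traffic that is no netrin receptor, was at 107 ± 4.45 RPKM in pillar cells against 75.0 ± 1.57 RPKM in Deiters' cells (SD, n = 3) and was not called. Plxna4os1, an antisense transcript at the Plxna4 locus, was listed at 0 in pillar cells and at 0.141, 0.236 and 0.244 RPKM in Deiters' cells, from 24 reads, and was called higher there (log2 fold change -1.60, SE 0.20, adjusted p = 3.70e-04). Unc5cl was not called, and the other antisense transcripts were listed at 0. With them, 14 and 8 of the 56 tested features were called.

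Guidance genes outside these families, taken from a list of receptors, co-receptors and adhesion molecules, included the adhesion molecules Nrcam and L1cam, higher in pillar cells. Of 24 genes, 19 were tested, with 7 higher in pillar cells, and 1 higher in Deiters' cells, where the shares over all genes were 14.7% and 14.0%. Their median log2 fold change was 0.39, against 0.00 over all genes. Nrcam, a cell adhesion molecule that joins neuropilin complexes, was at 32.1, 32.8 and 32.6 RPKM in pillar cells and 3.60, 3.37 and 3.51 RPKM in Deiters' cells (log2 fold change 3.18, SE 0.04, adjusted p = 3.89e-08). L1cam, of the same family, was at 5.98, 5.72 and 5.33 RPKM in pillar cells and 0.120, 0.254 and 0.168 RPKM in Deiters' cells (log2 fold change 4.39, SE 0.18, adjusted p = 3.02e-06). Flrt2, an adhesion molecule that binds Unc5 receptors, was at 4.57 ± 0.302 and 0.870 ± 0.0406 RPKM (SD, n = 3; log2 fold change 2.27). The other 4 higher in pillar cells were Dscaml1, Rtn4r, Flrt3 and Ntng2, with log2 fold changes of 1.05 to 2.70. The Ntng2 call was lost when any library but pillar cell library 3 was left out, with adjusted p from 0.0108 to 0.0183. It was also lost in the first lanes alone (0.62, adjusted p = 0.128), in lane set 1 (0.74, adjusted p = 0.0407) and in lane set 2 (1.20, adjusted p = 0.0485). Rgma, a ligand of neogenin, lay just short of a call towards Deiters' cells (log2 fold change -0.99), and passed it without pillar cell library 2 (-1.04) or 3 (-1.01) or without Deiters' cell library 2 (-1.02). Draxin, a secreted antagonist of netrin signalling, was higher in Deiters' cells, at 0.228, 0.202 and 0.300 RPKM in pillar cells and 1.36, 1.49 and 1.54 RPKM in Deiters' cells (log2 fold change -2.19, SE 0.14, adjusted p = 2.13e-05). The netrin receptor neogenin (Neo1) was expressed in both, at 7.13 and 5.43 RPKM, and was not called.

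Intracellular effectors of guidance receptors were called in both directions. Of 55 genes, 54 were tested, with 6 (Pak3, Fes, Trio, Crmp1, Dpysl5 and Dpysl3) higher in pillar cells, and 10 higher in Deiters' cells. The shares over all genes were 14.7% and 14.0%, near those of this list, and the median log2 fold change was -0.15 here against 0.00 over all genes. The collapsin response mediators, which act below semaphorin receptors, were called on both sides: Crmp1, Dpysl3 and Dpysl5 in pillar cells, and Dpysl4 in Deiters' cells. Pak3, a kinase activated by Rac and Cdc42, was at 12.4, 12.3 and 12.5 RPKM in pillar cells and 1.30, 1.53 and 1.46 RPKM in Deiters' cells (log2 fold change 3.03, SE 0.07, adjusted p = 3.46e-07). Chn2, a GTPase-activating protein for Rac, was at 0.665, 0.613 and 0.700 RPKM in pillar cells and 5.48, 4.96 and 5.64 RPKM in Deiters' cells (log2 fold change -2.85, SE 0.09, adjusted p = 9.37e-07). Srgap2, which binds the tail of Robo1, was at 2.30 ± 0.101 RPKM in pillar cells against 8.41 ± 0.122 RPKM in Deiters' cells (SD, n = 3; log2 fold change -1.82), and so was higher in the cells with less Robo1. Rhod had a log2 fold change of -2.03 (SE 0.07, adjusted p = 1.29e-06), and Ablim1 and Ablim3, actin-binding LIM proteins, had log2 fold changes of -1.57 and -1.40. The adaptor Nck1 was at -1.13. Farp1, Farp2, Dpysl4 and Vav2 were also higher in Deiters' cells, with log2 fold changes of -1.15 to -1.68. The other 38 were not called.

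**Figure D4:**
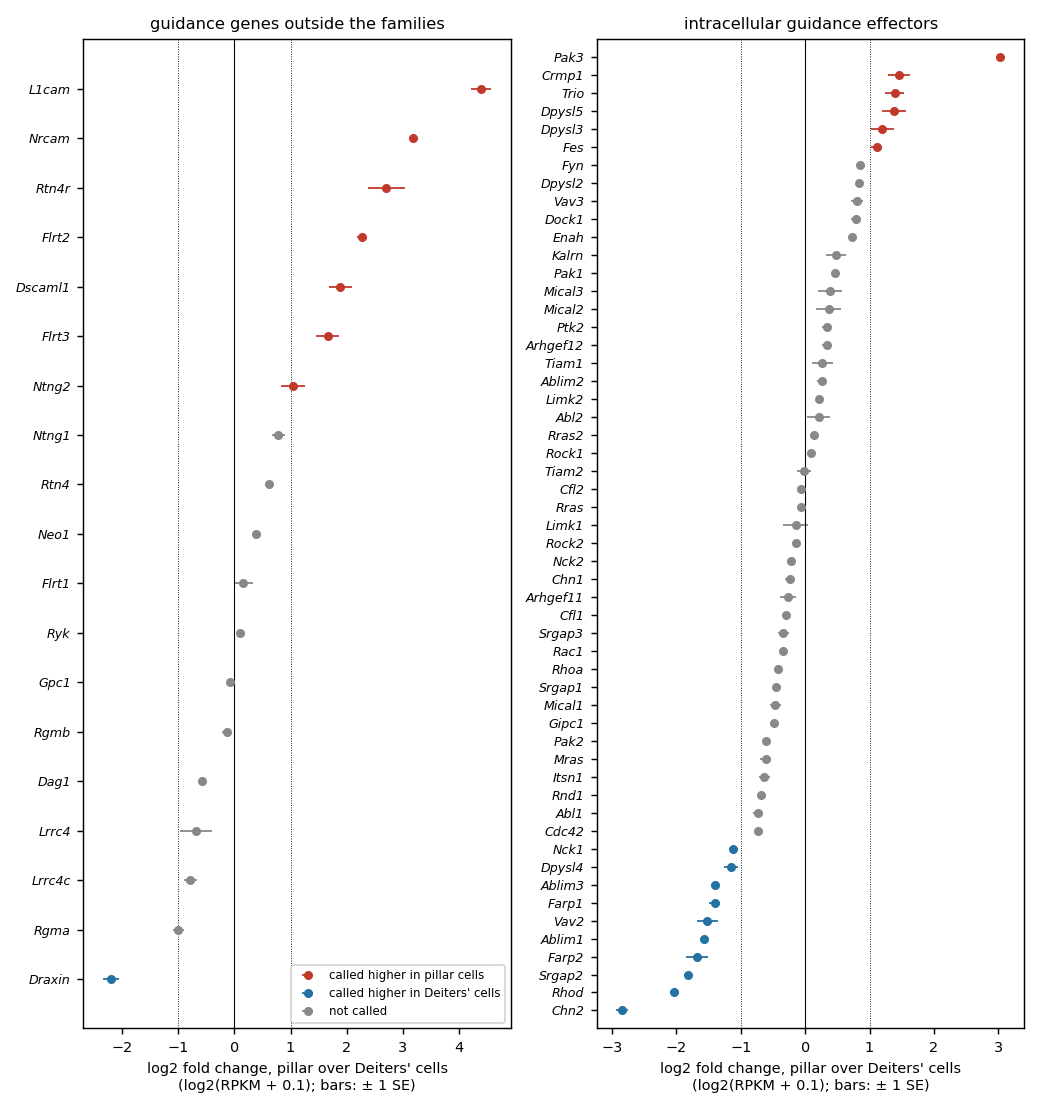
Log2 fold change on log2(RPKM + 0.1) with bars of 1 SE (n = 3 libraries per cell type) for the 19 guidance genes outside the families (left) and the 54 intracellular effectors (right). On the left, 7 genes lie past 2-fold towards pillar cells and 1 towards Deiters' cells. On the right, 6 and 10 do.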

How the data were processed

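RNA of about 1000 cells per library was amplified and sequenced on an Illumina instrument. The labels name a SMARTer low input kit and the paper's methods SMART-Seq V4. Neither is stated to keep strand. CLC Genomics Workbench was used by the authors to map the read pairs to the mouse genome (mm10, GRCm38), and they deposited RPKM values of each lane for 48440 features. The annotation release is not given in the sources used here. Lanes were averaged per library. Exon lengths of GENCODE M21 turned the RPKM steps into reads, whole to within 0.01 in 71.9% of 20010 features and in 42 of the 63 matched features above 0. Read numbers are used for depth only and cover counting error only.

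Genes averaging above 0.1 RPKM in pillar or Deiters' cells were compared on log2(RPKM + 0.1) with limma 3.58.1 in R 4.3.3 (lmFit, eBayes with a variance trend), with Benjamini-Hochberg adjustment over 17188 genes. The method was tested on simulated data in which all changed genes had a mean above 1 RPKM. Counting noise and lane sets were not simulated, so that test does not cover calls of low genes. The study's own count test was not used because RPKM are not counts. An exact permutation test of 3 against 3 libraries cannot give a two-sided p below 0.1. The libraries are labelled biological replicates. Both cell types may come from the same mice, but which libraries share mice is not stated.

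The members and lists were chosen with earlier results of these data known. Named were the members called, the highest member of each family per cell type, those at 0 in 1 cell type only and up to 8 called genes of each further list by smallest p. Efna2, Efna3, Efna5, Ntn1, Neo1, Rgma and Unc50 are named outside this rule, as are the remaining called genes of the lists and the genes listed at or near 0 (chosen after their values were seen). Alternatives were other pseudocounts, filters, scalings and variance models, single lanes, lane sets (chosen after seeing the data), a replicate block and leaving out each library.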

Additional observations from a re-analysis of the deposited data

How the results depend on the processing

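None of the named genes' calls reversed under any alternative, and of the 21 calls among the guidance genes 8 were kept under all of them. The number of calls was most affected by the added constant. With 1 RPKM added, the guidance genes gave 5 calls for pillar cells and 3 for Deiters' cells, against 14 and 7, the median log2 fold change was 0.17 against 0.35, the other guidance genes gave 3 and 0 calls against 7 and 1, and the effectors 1 and 6 against 6 and 10. Over all 17188 genes, the calls went from 2534 and 2404 to 1001 and 778. With a mean above 1 RPKM required, 31 guidance genes were tested, which gave 8 calls for pillar cells and 5 for Deiters' cells. The 13 other guidance genes tested gave 4 and 1. Over all 12285 genes that passed this stricter filter, the calls were 1572 and 1224. Without the filter the median log2 fold change over 60 genes was 0.15. Calls of other guidance genes in Deiters' cells were 2 with 0.01 RPKM added, 2 with quantile normalization, 2 with lane L001 only, 3 with lane set 2 only, and 1 to 2 when a library was left out. Above 1 RPKM, the guidance genes expressed numbered 28 for pillar and 26 for Deiters' cells, against 49 and 48 above 0.1 RPKM. Leaving out 1 library gave 13 to 15 calls in pillar cells and 6 to 8 in Deiters' cells. The scalings moved the median of all genes by at most -0.04 (quantile) and 0.04 (median ratio). With quantile normalization the calls of Fes (0.96), Dpysl3 (0.97) and Ephb2 (-0.90) were lost and Rgma (-1.17) was called, and with median ratio scaling that of Sema4a (-0.98) was lost. The cause of changes with the scalings was not tested.

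Whether same-numbered libraries share mice could not be decided from the values, because the lane sets are spread unevenly over the libraries. Pillar cell library 2 lay wholly in lane set 2 and Deiters' cell library 3 wholly in lane set 1. Over 10440 genes, the deviations of same-numbered libraries correlated with r = -0.31, 0.39 and 0.33 for numbers 1, 2 and 3, and libraries did not all correlate best with their own number. With the library number as a replicate block, 14 and 7 guidance genes were called, the median log2 fold change was 0.35, and the other guidance genes gave 6 and 1 calls, with Ntng2 lost (adjusted p = 0.0114), and the effectors 6 and 10. The lanes of set 1 alone gave 14 and 6 guidance gene calls and those of set 2 alone 15 and 8. At this depth, 3 reads over the 3 libraries of a cell type stand for 0.00777 RPKM in Plxnb3, so absence below that level is not shown.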
